A study of Mus musculus with 6 samples.

Results

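The miR-15/16 family was examined in small RNA sequencing counts from mouse small intestinal (SI) organoids, epithelial cultures grown from isolated crypts in Matrigel. Members were all entries of the count table named miR-15a, miR-15b, miR-16, miR-195a, miR-322 or miR-497a, and 4 entries met this rule, all of them among the 195 mature miRNAs that could be tested (a further 4 in the table were too low). These were mmu-miR-16-5p, mmu-miR-15b-5p, mmu-miR-15b-3p and mmu-miR-15a-5p. No entry of miR-195a, miR-322 or miR-497a was among those listed. The organoids were given BMP4 (bone morphogenetic protein 4) at 0.5 µg/ml for 4 days in 3 libraries or PBS as control in 3 libraries, all in the same commercial growth medium. Whether replicate libraries stem from independent cultures is not stated in the labels, so a p-value reflects only how far replicate libraries differed, possibly for technical reasons. The labels give no mouse strain, age or genotype.

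A miRNA guides Argonaute to mRNAs mainly through its seed, the stretch from base 2 to base 8, and lowers their translation and stability. The miR-15/16 family is known from B cell leukemia, where the human locus is often deleted, and represses cyclins D1, D2, D3 and E1, CDK6 and BCL2, so that it restrains entry into S phase. In the intestine, proliferation is confined to the crypt and BMP signaling is highest towards the villus, and BMP4 was applied here to move organoid cells from proliferation towards enterocyte differentiation. The question for the family was whether its levels differ in BMP4-treated organoids.

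The mature sequences are shown because the shared seed defines the family, while the remaining bases decide whether a read can be told apart between members. Sequences are those of RefSeq on GRCm38.p6, 5′ to 3′, with the seed in capitals.
miR-16-5p: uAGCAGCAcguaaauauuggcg
miR-15b-5p: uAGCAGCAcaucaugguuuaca
miR-15a-5p: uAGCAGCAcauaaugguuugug
miR-195a-5p: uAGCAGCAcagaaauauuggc
miR-15b-3p: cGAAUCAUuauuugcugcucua

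The 3 listed 5p arms carried the seed AGCAGCA, and miR-15b-3p, the opposite arm of the miR-15b hairpin, carried another. Among all mature mouse miRNAs of the RefSeq table, 10 names have the seed AGCAGCA, and the 3 members were the only ones of these in the count table. All 4 measured arms are 22 bases long. Counted from 1 at the 5′ end, miR-15b-5p and miR-15a-5p were the closest measured pair, with differences C12A, A20G, C21U and A22G. miR-16-5p differed from miR-15a-5p at 6 positions and from miR-15b-5p at 8. The closest relative of miR-16-5p is miR-195a-5p, shown above, which differs at 2 of the 21 positions compared (G10A and U11G). The entry of miR-16-5p could hold reads of miR-195a-5p only if the counting tolerated both mismatches. Reads of miR-15b-5p and miR-15a-5p that end before base 20 differ only at C12A. Such reads could be counted under the other entry if that mismatch was tolerated, which was not tested.

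The members come from a pair of loci. Mir15b lies at chr3:69009772-69009835 and Mir16-2 at chr3:69009902-69009996 on the + strand of GRCm38, both in an intron of Smc4, which encodes a condensin subunit needed for mitotic chromosome structure. Mir15a lies at chr14:61632027-61632110 and Mir16-1 at chr14:61631880-61631972 on the - strand, within the long noncoding gene Dleu2, Mir15a in an intron and Mir16-1 overlapping an annotated exon. The hairpins of each locus are 66 and 54 bases apart. Both loci yield an identical miR-16-5p, so its counts cannot be assigned to either, whereas miR-15b arms belong to the Smc4 locus and miR-15a-5p to the Dleu2 locus. The 3p arms that would mark Mir16-1 and Mir16-2 were not among the listed entries. The Mir15b hairpin is shown because it is the one from which both arms were measured, with the 5p and then the 3p arm in capitals.
Mir15b: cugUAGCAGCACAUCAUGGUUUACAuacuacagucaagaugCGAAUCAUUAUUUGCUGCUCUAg

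Library totals ranged from 998854 to 3486409 counts in BMP4 and from 259811 to 2248866 in PBS. The miR-215, miR-192 and miR-194 entries are miRNAs of mature intestinal epithelium, led by miR-215-5p (log2 fold change 3.85 ± 0.34, SE, edgeR adjusted p = 2.25e-08). They took 77.4 to 79.6% of the counts in BMP4 libraries and 36.2 to 39.4% in PBS libraries. All other miRNAs summed thus held a smaller share in BMP4, though not every single one of them did. CPM are counts relative to a library size corrected by the TMM method of edgeR, under which the typical miRNA shows no difference. The factors ran from 0.375 (replicate 2) to 0.651 in BMP4 and from 1.78 to 1.97 in PBS. BMP4 replicate 2 stood apart from the other BMP4 libraries, and values without it stand beside the results it moves most. The listed markers of the epithelium took 81.8 to 84.0% of counts in BMP4 and 50.7 to 53.1% in PBS, the miR-215, miR-192 and miR-194 entries included. By edgeR with TMM, 7 of these 15 rows were called higher, 0 lower and 8 not called, beside 34 higher and 25 lower of all 195. With total counts 4 of the 15 were called higher and 11 lower, beside 13 and 158 of all 195. Among markers of other cells, 0 rows of the stromal and smooth muscle list and 0 of the red cell list were in the table, and the summed share was at most 0.00565% in BMP4 and 0.00974% in PBS for immune cells (2 rows of 5 names) and at most 0.00318% in BMP4 and 0.0145% in PBS for endothelium (miR-126a-3p). Neuronal markers (2 rows) took 0.0353 to 0.0385% in BMP4 and 0.0470 to 0.104% in PBS. Markers of stratified epithelium took 0.371 to 0.477% in BMP4 and 0.676 to 0.828% in PBS, with miR-205-5p lower (log2 fold change -3.01, edgeR adjusted p = 0.000233) and miR-203-3p higher (1.03, adjusted p = 0.0104). The liver marker miR-122-5p was higher by TMM (2.71, adjusted p = 0.000895) at no more than 0.00190% in BMP4 and 0.00192% in PBS, and miR-1a-3p of muscle stayed at or below 0.00195% in BMP4 and 0.00414% in PBS. The part of these cells in the values of the family was not tested. Fewer cells that express a miRNA and less of it per cell cannot be told apart in such bulk libraries.

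miR-16-5p was the most abundant member in every library. It had 251, 46 and 537 counts in BMP4 and 180, 1259 and 1657 in PBS. This corresponded to 389, 123 and 237 CPM in BMP4 and 352, 315 and 399 CPM in PBS. BMP4 replicate 1 lay among the PBS values and the other BMP4 libraries lay below them, so the groups overlapped. In rank it was entry 64, 85 and 70 of the table in BMP4 and 62, 64 and 64 in PBS. The mean was 250 ± 134 CPM in BMP4 and 355 ± 42.1 CPM in PBS (SD, n = 3 each), with a log2 fold change of -0.50 ± 0.39 (SE, 95% interval -1.32 to 0.31, edgeR quasi-likelihood adjusted p = 0.365).

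miR-15b-5p, the guide arm of the Smc4 locus next to Mir16-2, followed in abundance in every library. It had 61, 11 and 169 counts in BMP4 and 54, 398 and 617 in PBS, or 94.6, 29.4 and 74.5 CPM in BMP4 and 105.7, 99.5 and 148 CPM in PBS. All 3 BMP4 values lay below all 3 PBS values, although BMP4 replicate 1 and PBS replicate 2 were close. Groups did not overlap in CPM for 1 of the 4 members, against 43.6% of all 195 tested miRNAs. The log2 fold change was -0.80 ± 0.42 (SE, n = 3 per group, 95% interval -1.67 to 0.07) and did not pass by edgeR (adjusted p = 0.164).

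miR-15b-3p, the arm usually degraded as the passenger strand, had 21, 6 and 38 counts in BMP4 and 10, 126 and 180 in PBS. In CPM this was 32.6, 16.03 and 16.7 in BMP4 and 19.6, 31.5 and 43.3 in PBS. BMP4 replicate 1 was above 2 of the PBS libraries, while the other BMP4 libraries were below all of them. The log2 fold change was -0.62 ± 0.43 (SE, n = 3 per group, 95% interval -1.52 to 0.29, edgeR adjusted p = 0.314).

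miR-15a-5p, the arm of the Dleu2 locus, had 30, 7 and 26 counts in BMP4 and 13, 52 and 139 in PBS. It stood at 46.5, 18.7 and 11.5 CPM in BMP4 and 25.4, 13.0 and 33.5 CPM in PBS. The highest and the lowest value of the 6 were both from BMP4 libraries. Its log2 fold change was 0.026 ± 0.52 (SE, n = 3 per group, 95% interval -1.05 to 1.10, edgeR adjusted p = 0.966), an interval that holds a 2-fold difference in either direction. A count of 3 was worth 8.02 CPM in BMP4 replicate 2, so the values of miR-15a-5p and miR-15b-3p in that library rest on few reads.

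**Figure D1:**
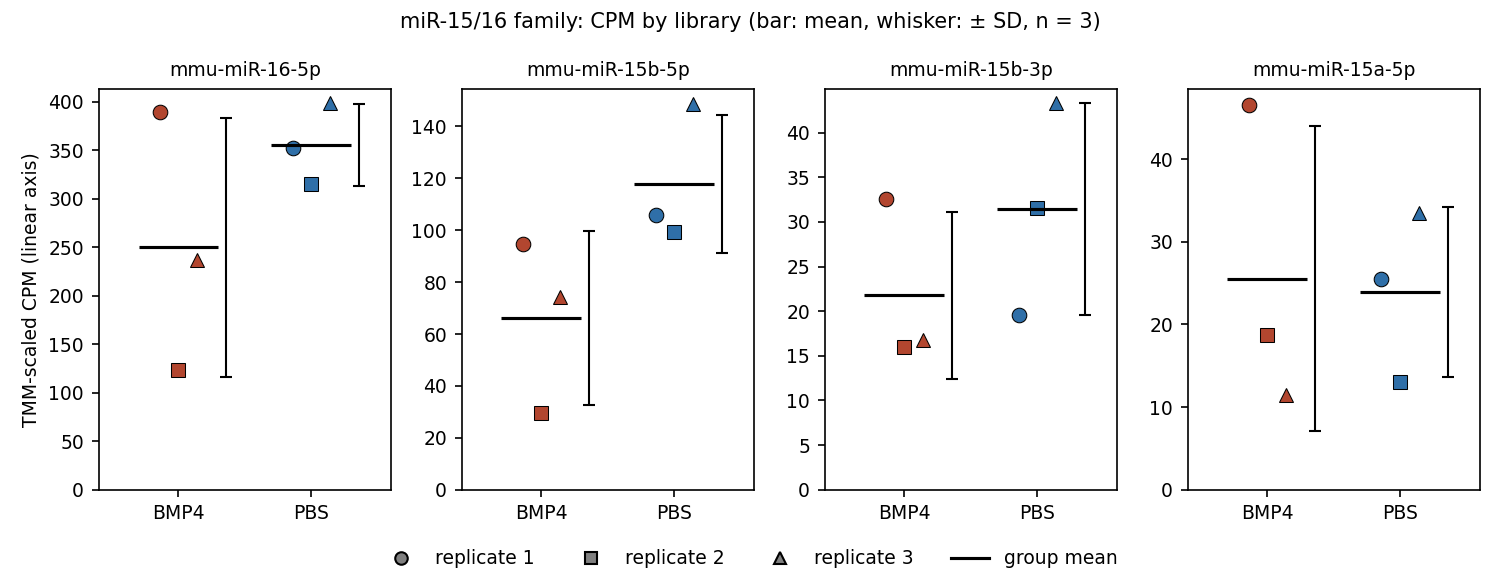
TMM-scaled CPM of each member (y axis, linear, from 0, a separate scale per panel) in the 3 BMP4 and 3 PBS libraries, with marker shape for the replicate, a bar for the mean and a whisker for ± SD. BMP4 libraries spread more widely than PBS libraries for miR-16-5p, and only miR-15b-5p has all BMP4 values under all PBS values.

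By edgeR, 0 of the 4 members passed an adjusted p of 0.05 over all tested miRNAs. The background was 30.3% called (59 of 195). An unadjusted p under 0.05 was found for 0 of the 4 members and 74 of all 195. DESeq2 and limma-voom also called 0 members, beside 57 and 59 of all miRNAs tested by each. In both, miR-15b-5p had an unadjusted p under 0.05. How many of all miRNAs had one by these methods was not counted. The median log2 fold change of the members was -0.56, beside 0.031 over all tested miRNAs. The intervals above include no change and also reach down to between -1.05 (miR-15a-5p) and -1.67 (miR-15b-5p) on the log2 scale, so these libraries do not show that the family was unchanged.

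The spread within BMP4 was large for the 5p arms. The SD of log2 CPM of miR-16-5p was 0.83 in BMP4 and 0.17 in PBS, beside medians over the tested miRNAs of 0.52 in BMP4 and 0.31 in PBS. For miR-15b-5p it was 0.88 in BMP4 and 0.31 in PBS, and for miR-15a-5p 1.003 in BMP4 and 0.68 in PBS. miR-15b-3p differed in this, with 0.56 in BMP4 and 0.57 in PBS. BMP4 replicate 2 differed from the mean of the other BMP4 libraries by -1.30 for miR-16-5p and -1.498 for miR-15b-5p on the log2 scale, ranks 26 and 22 from the lowest of 195. The median over all tested miRNAs was -0.16. For miR-15a-5p the same difference was -0.30, and its BMP4 spread came from replicate 1, the highest. Without BMP4 replicate 2 the log2 fold changes were -0.20 (miR-16-5p), -0.51 (miR-15b-5p), -0.54 (miR-15b-3p) and 0.09 (miR-15a-5p). edgeR then called 0 members, beside 71 of all tested miRNAs, and 0 members had an unadjusted p under 0.05. Without BMP4 replicate 1 the log2 fold changes were -0.96, -1.09, -0.99 and -0.79 in the same order. edgeR then called 0 members, beside 52 of all tested miRNAs, and 2 members had an unadjusted p under 0.05. How many of all miRNAs had one in these 2 fits was not counted. With all libraries it was 74 of 195, so the 2 members do not stand out from the table.

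**Figure D2:**
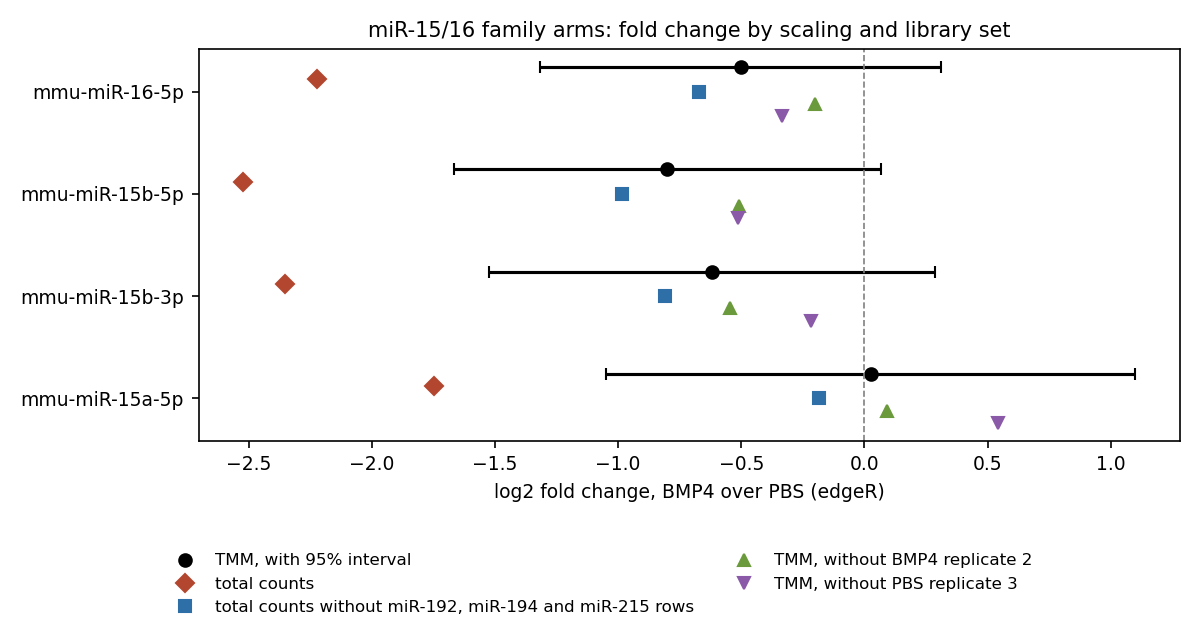
log2 fold change of each member, BMP4 over PBS (x axis), by edgeR with TMM (black, with its 95% interval), with total counts, with total counts less the miR-215, miR-192 and miR-194 entries, and with TMM without BMP4 replicate 2 or PBS replicate 3. With total counts all 4 members lie between -2.52 and -1.75, while the other settings stay within the intervals around TMM.

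As an unscaled share of all counts, the family was smaller in BMP4. The 4 arms together held 0.0338% (95% Wilson interval 0.0305 to 0.0375), 0.00701% (0.00555 to 0.00885) and 0.0221% (0.0206 to 0.0237) of the counts in BMP4 libraries. In PBS libraries they held 0.0989% (0.0875 to 0.112), 0.0816% (0.0779 to 0.0854) and 0.122% (0.117 to 0.127). Every BMP4 library lay below every PBS library, and the means were 0.0210 ± 0.0134% in BMP4 and 0.101 ± 0.0202% in PBS (SD, n = 3 each, exact 2-sided permutation p = 0.1, the smallest that 3 against 3 allows). Singly, 3 of the 4 members had a lower share in every BMP4 library than in any PBS library, against 82.1% of all tested miRNAs, the exception being miR-15a-5p. The lower share was thus shared with most of the table. edgeR with total counts, the test of this unscaled quantity, called 4 of 4 members lower, where 81.0% of all miRNAs were called lower, and the median of all miRNAs moved to -1.78. Relative to that median the members stood at -0.44 (miR-16-5p), -0.74 (miR-15b-5p), -0.57 (miR-15b-3p) and 0.04 (miR-15a-5p).

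Once the miR-215, miR-192 and miR-194 entries were taken out of the denominator, the 4 arms held 0.165, 0.0343 and 0.0976% in BMP4 and 0.155, 0.130 and 0.201% in PBS. BMP4 replicate 1 then lay within the PBS range, and the means of 0.0989 ± 0.0652% in BMP4 and 0.162 ± 0.0359% in PBS (SD, n = 3 each) gave an exact permutation p of 0.3. Of the members, miR-15b-5p alone remained lower in every BMP4 library, with 0.00539 to 0.0277% in BMP4 and 0.0283 to 0.0478% in PBS (exact permutation p = 0.1, n = 3 each). How many of all miRNAs did so on this denominator was not counted. By CPM, the groups did not overlap for 43.6% of all tested miRNAs, in either direction. edgeR on these totals called 0 of 4 members lower, where 13.1% of all miRNAs were.

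**Figure D3:**
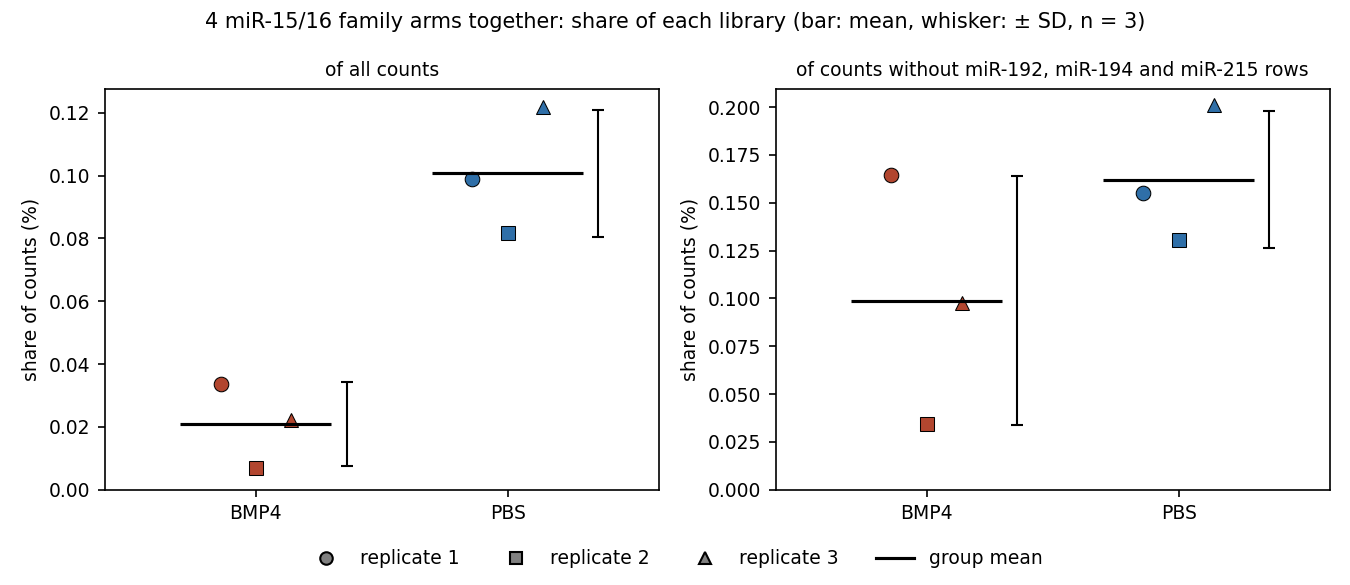
Share of counts (y axis, percent, from 0) held by the 4 members together in each BMP4 and PBS library, with bars for means and whiskers for ± SD, of all counts (left) and of counts without the miR-215, miR-192 and miR-194 entries (right). The groups are apart on the left, at 0.00701 to 0.0338% in BMP4 and 0.0816 to 0.122% in PBS, and overlap on the right.

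Within the family the make-up was alike between the groups for the leading arm. miR-16-5p held 69.1, 65.7 and 69.7% of the family counts in BMP4 and 70.0, 68.6 and 63.9% in PBS, a mean of 68.2 ± 2.17% in BMP4 and 67.5 ± 3.21% in PBS (SD, n = 3 each). miR-15b-5p held 16.8, 15.7 and 21.9% in BMP4 and 21.0, 21.7 and 23.8% in PBS. Its BMP4 shares were lower in replicates 1 and 2, while replicate 3 lay within the PBS range. The remaining arms changed places between libraries. miR-15a-5p was above miR-15b-3p in BMP4 replicates 1 and 2 and PBS replicate 1 and below it in the other 3 libraries, so their order is not settled by these counts.

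Ratios between members do not depend on library scaling, and 6 pairs were compared, on log2 ratios with 0.5 added to each count. miR-16-5p was 4.11, 4.18 and 3.18 times miR-15b-5p in BMP4 and 3.33, 3.16 and 2.69 times in PBS. BMP4 replicates 1 and 2 were above all PBS libraries and replicate 3 was not, with a log2 difference of 0.30 (exact 2-sided permutation p = 0.2, adjusted over the 6 pairs p = 0.6). The largest difference was that of miR-15b-5p to miR-15a-5p, the arms that mark the Smc4 and the Dleu2 locus. This log2 ratio was 1.44 ± 1.09 in BMP4 and 2.36 ± 0.49 in PBS (SD, n = 3 each), a difference of -0.93 with overlapping groups (exact permutation p = 0.3, adjusted p = 0.6). It was -0.52 without BMP4 replicate 2 and -1.55 without BMP4 replicate 3. The difference of miR-16-5p to miR-15a-5p was -0.63, and -0.27 without BMP4 replicate 2. The groups overlapped for all 6 pairs, with exact p from 0.2 to 0.8. The 5p arm of the Mir15b hairpin exceeded the 3p arm in every library, with a log2 ratio of 1.49 in BMP4 and 1.94 in PBS. The difference of -0.44 ± 0.50 (SE, 95% interval -1.58 to 0.70) did not pass among 34 hairpins with both arms measured (limma adjusted p = 0.638), of which 2.94% were called. It moved with single libraries, to -0.11 when BMP4 replicate 2 was left out, -0.22 for PBS replicate 1 and -0.77 for BMP4 replicate 3.

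Ratios to other miRNA groups with known roles in proliferation were also formed within each library. The miR-17-92 cluster, transcribed under MYC and E2F and known to favor proliferation, had 8 rows in the table. The 4 members together stood at 0.131, 0.0359 and 0.0851 times these rows in BMP4 and at 0.0488, 0.0493 and 0.0502 times in PBS. The PBS libraries were nearly identical in this ratio, and the BMP4 libraries lay on both sides of them, replicate 2 below. The log2 ratio was -3.76 ± 0.94 in BMP4 and -4.34 ± 0.02 in PBS (SD, n = 3 each, difference 0.58, exact permutation p = 0.4). Without BMP4 replicate 2 the difference was 1.09, and without BMP4 replicate 1 it was 0.17 (exact permutation p = 0.2 and 0.8). Taken singly, miR-15a-5p stood higher against these rows in every BMP4 library than in any PBS library, on counts as low as 7. Its log2 difference was 1.22 (exact permutation p = 0.1, adjusted over 8 single-member ratios p = 0.64). For each of the other members the groups overlapped. Rows of the cluster such as miR-17-5p and miR-20a-5p were themselves lower in BMP4, while miR-15a-5p stood at a log2 fold change of 0.026. A miRNA with no difference of its own could thus also stand higher against the cluster. How many of all miRNAs did so was not counted.

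The sum of the cluster is led by miR-92a-3p, which did not pass in BMP4 (log2 fold change -0.67 ± 0.32, edgeR adjusted p = 0.124), while miR-17-5p (-2.002 ± 0.33, adjusted p = 5.74e-05) and miR-20a-5p (-1.95 ± 0.31, adjusted p = 4.76e-05) fell. With miR-92a-3p left out, a choice made after seeing the values, the members stood at 0.289, 0.158 and 0.197 times the cluster in BMP4 and at 0.0767, 0.0897 and 0.0941 times in PBS. All BMP4 libraries were then above all PBS libraries, replicate 2 included, with a log2 difference of 1.27 (exact permutation p = 0.1, the smallest possible). Against miR-17-5p, a pairing chosen likewise after seeing the values, miR-16-5p was 0.642, 0.348 and 0.465 times miR-17-5p in BMP4 and 0.165, 0.182 and 0.196 times in PBS, again with no overlap (log2 difference 1.38, exact permutation p = 0.1). Both denominators hold miRNAs that fell, so these ratios are not independent of the fold changes of miR-17-5p and miR-20a-5p. A miRNA whose own level did not differ would also stand higher against them, so the separation is no evidence about the members. How many of all miRNAs separate in this way was not counted.

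The let-7 family, which is also known to restrain proliferation, served as another denominator. Its most abundant entry, let-7f-5p, did not pass (log2 fold change 0.43 ± 0.34, SE, edgeR adjusted p = 0.365). The members stood at 0.00716, 0.00127 and 0.00378 times the 8 let-7 5p arms in BMP4 and at 0.00593, 0.00423 and 0.00748 times in PBS. BMP4 replicate 1 was within the PBS range and replicates 2 and 3 were below it, with a log2 difference of -0.81 (exact permutation p = 0.4, and -0.14 without BMP4 replicate 2). Over both denominators the p adjusted for 2 comparisons was 0.4.

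**Figure D4:**
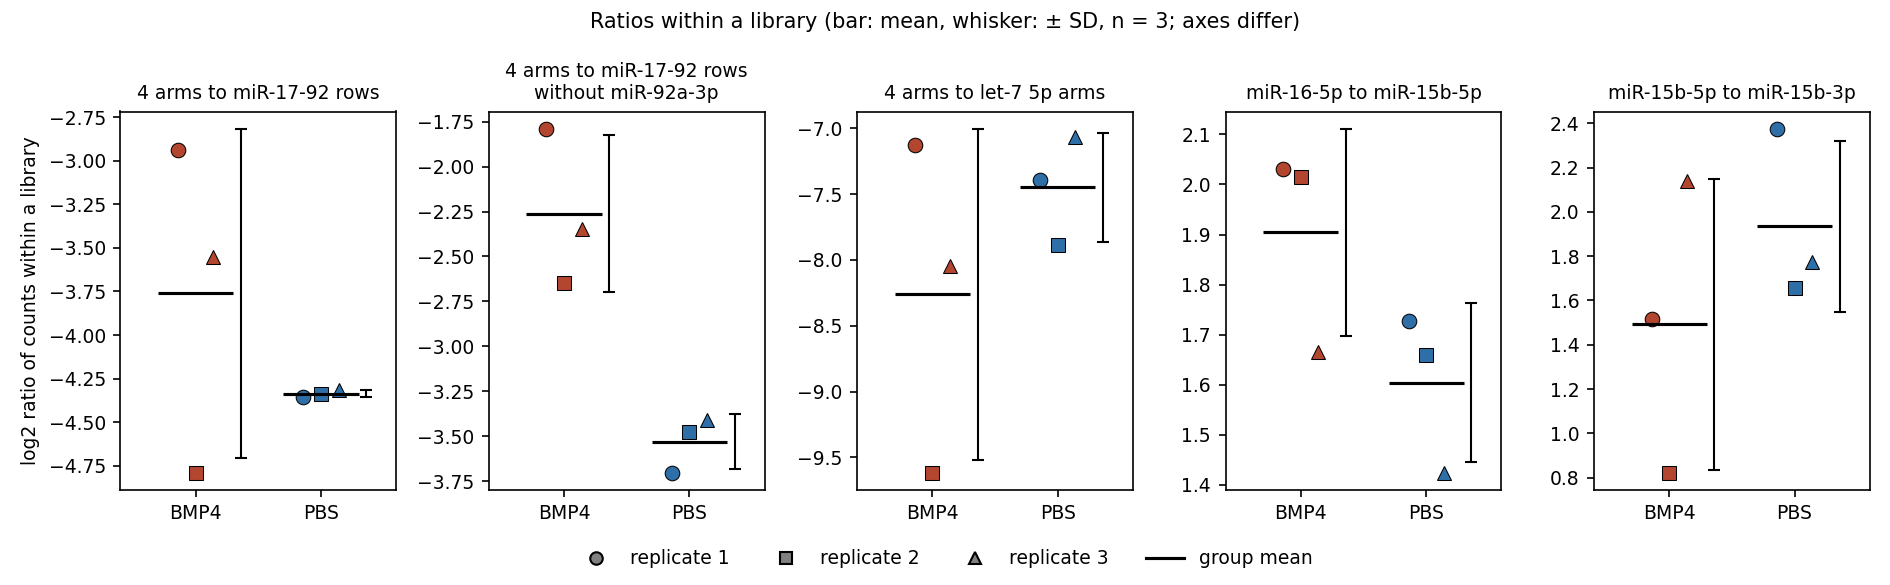
log2 ratios of counts within each library (y axes, which differ between panels) for BMP4 and PBS, with a bar for the mean and a whisker for ± SD. Of the 5 ratios only that to the miR-17-92 rows without miR-92a-3p separates the groups. Its denominator was chosen after seeing the values and holds rows that fell. BMP4 replicate 2 is the lowest BMP4 library in 4 of the 5 ratios.

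Other groups tied to the cell cycle were counted for comparison in the edgeR fit with TMM, where 34 of all 195 tested miRNAs were higher and 25 lower. Of 16 tested entries of miR-17-92 and its paralogs 0 were higher and 8 lower, with a median log2 fold change of -1.16, and 2 of 2 miR-34 entries, which respond to p53, were lower (median -1.95). With total counts the numbers called lower were 16 of 16 and 2 of 2. Of 15 let-7 entries 0 were called (1 at an unadjusted p under 0.05, and 1 called by DESeq2), with a median of -0.10. Of 8 entries in other groups described as restraining the cell cycle (miR-26, miR-29, miR-101, miR-103 and miR-107), 1 rose, miR-101a-3p at 1.46 ± 0.41 (SE, adjusted p = 0.0104), and the median was -0.12. With total counts, by contrast, 15 of 15 let-7 entries and 7 of these 8 were lower, as were the 4 miR-15/16 members, where 81.0% of all tested miRNAs were. The median of the miR-15/16 members (-0.56) lay between those of the let-7 and miR-17-92 lists. Whether the lists differ was not tested, since the ratios above used only 8 miR-17-92 rows and 8 let-7 5p arms.

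As a seed family, the AGCAGCA group held 0.0318, 0.00641 and 0.0210% of counts in BMP4 and 0.0951, 0.0760 and 0.113% in PBS. Among the seed groups formed by the 177 entries with a RefSeq sequence, it ranked 33, 50 and 38 in BMP4 and 29, 36 and 30 in PBS, with the lowest share in BMP4 replicate 2.

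The members moved together across libraries to different degrees. Over the 6 libraries, the log2 CPM of miR-16-5p and miR-15b-5p had a Pearson r of 0.964, and miR-15b-5p and miR-15b-3p, from the same hairpin, 0.740. miR-15a-5p had 0.501 with miR-16-5p and 0.347 with miR-15b-5p. Among 191 other miRNAs, those most like miR-16-5p were miR-32-5p (r = 0.986), miR-191-3p (0.972) and miR-484 (0.954), none called in BMP4 (log2 fold changes -0.24, -0.37 and -0.59). Those most like miR-15a-5p were miR-29b-3p (0.860), miR-29a-3p (0.840) and miR-872-5p (0.750), also not called. For miR-15b-5p they were miR-484 (0.986), miR-339-5p (0.980) and miR-181a-5p (0.979), of which miR-339-5p fell (log2 fold change -1.29 ± 0.46, SE, edgeR adjusted p = 0.0405). For miR-15b-3p they were miR-652-3p (0.921), miR-328-3p (0.906) and miR-29b-3p (0.872), of which miR-328-3p fell (-1.18 ± 0.42, adjusted p = 0.0396). These coefficients are descriptions of 6 libraries that share their scaling factors, and BMP4 replicate 2 was the lowest library for miR-16-5p and miR-15b-5p.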

How the data were processed

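Small RNA was sequenced from 3 BMP4 and 3 PBS libraries of mouse SI organoids. The authors extracted RNA with a kit that retains small RNA, built ligation-based libraries, trimmed adaptors with bbmap, kept inserts of miRNA length, mapped them to the mouse genome and counted mature miRBase miRNAs with miRDeep2. The deposited values are raw counts per library, not normalized. The sources used here do not give the genome build, the miRBase release or the rule by which entries were listed, and coordinates are those of GENCODE M21 on GRCm38 matched by hairpin name. The submitters' processing notes name edgeR.

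Counts were tested with edgeR 4.0.16 in R 4.3.3 (filterByExpr, 195 entries kept; TMM; quasi-likelihood F test; Benjamini-Hochberg adjustment over 195, threshold 0.05). Standard errors were derived as the absolute log2 fold change over the root of F, with 95% intervals from the fitted degrees of freedom. The test was checked on simulated data. Arm ratios used limma 3.58.1 with an offset of 0.5 and a minimum mean of 10 counts. Single shares and ratios used exact 2-sided permutation, which 3 against 3 limits to 0.1. Wilson intervals and the floor of 3 counts reflect counting error alone, because reads without molecular identifiers can be PCR duplicates. Alternatives were DESeq2 1.42.0, limma-voom, other scalings, no filter, a replicate block and leaving out each library. Members and lists were chosen with earlier results of these data known. Entries named by rule were every member, the 3 most correlated over 6 libraries with miR-16-5p and with miR-15a-5p, miR-92a-3p, miR-20a-5p and miR-17-5p, the most abundant let-7 entry, miR-215-5p and up to 2 entries of other lists. Those most like the miR-15b arms were added after their values were seen. Chi-square over miRNAs put every replicate pair of a group far beyond sampling noise (at least 48.5 per degree of freedom).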

Additional observations from a re-analysis of the deposited data

How the results depend on the processing

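The number of miRNAs called, 59 with TMM, was 171 with total counts (13 higher and 158 lower, against 34 and 25), and ran from 35 (without PBS replicate 3) to 71 (without BMP4 replicate 2) when single libraries were left out. With total counts the log2 fold changes were -2.22 for miR-16-5p (adjusted p = 0.00159), -2.52 for miR-15b-5p (0.00104), -2.35 for miR-15b-3p (0.00101) and -1.75 for miR-15a-5p (0.0161), and all 4 were called. The median of all miRNAs moved to -1.78 with that scaling, and the cause of the shift was not tested. No other setting called a member. miR-15a-5p, at 0.026 with TMM, took the other sign with RLE scaling (-0.0081), upper quartile scaling (-0.088), total counts without the miR-215, miR-192 and miR-194 entries (-0.19) and limma-voom (-0.24), so it has no stable direction.

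Leaving out single libraries moved the log2 fold change over -0.96 to -0.20 for miR-16-5p, -1.09 to -0.51 for miR-15b-5p, -0.99 to -0.22 for miR-15b-3p and -0.79 to 0.54 for miR-15a-5p. The ratio of miR-16-5p to miR-15b-3p ran from -0.35 to 0.14. The cause of these sign changes was not tested. Ranges of the other results kept their sign.

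Equal replicate numbers in the labels are not stated to mark shared cultures, and deviations of same-numbered libraries correlated at 0.03, 0.07 and -0.01, so the numbers were not taken as pairs. With a replicate block 49 miRNAs were called, and the members stood at -0.64, -0.93, -0.64 and -0.19 (miR-16-5p, miR-15b-5p, miR-15b-3p and miR-15a-5p), none called. BMP4 replicate 1 correlated best with PBS replicate 3 (0.09).

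Counts were low in BMP4 replicate 2 (6 to 46) and, for the less abundant members, in PBS replicate 1 (10 to 54). Replicate libraries also differed beyond counting error.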
